A study of Homo sapiens and Mus musculus with 12 samples.

Results

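Polysome RNA was compared with monosome RNA in the S state of Yumm1.7, a mouse melanoma cell line with mutant Braf. The comparison rests on 2 of the 12 libraries of the series, 1 polysome and 1 monosome library. Genes were taken from the Yumm1.7 table where their mean over its 6 libraries was at least 1 TPM, a unit of read density per gene length scaled to a fixed total in every library, which left 10492 of 12711 listed genes. Just outside that limit were Zfp874b and Prrx2, at means of 0.9994 and 0.9996 TPM, and just inside it Zfp597 and Dcp1b, at 1.0002 and 1.0003 TPM. The series profiles parental and drug-tolerant persister cells of Yumm1.7 and of the human melanoma line A375. The labels give these states as S and P and do not say which letter is which or name the drug, so the letters are kept. Each state of each line has 1 polysome library, 1 monosome library and 1 input library of RNA before the gradient, all labelled as melanoma cells from skin.

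In polysome profiling, lysate is spun through a sucrose gradient and mRNAs sink further the more ribosomes they carry. An mRNA in heavy fractions usually carries several ribosomes, whereas an mRNA that carries one or none stays near the top. Here the polysome library came from the densest fractions at the foot of the gradient. The monosome library held the single-ribosome peak together with lighter fractions above it, so RNA carrying no ribosome can be part of it. Mitochondrial ribosomes and other large particles also sink in sucrose, and their transcripts can reach either pool without being translated in the cytosol.

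Neither fraction was sequenced in a second library, so differences have no replicate check and no test was made. TPM values keep no read depth, and errors of counting are therefore not given. Over the genes compared, the S libraries had a Pearson r on the log2(TPM + 1) scale of 0.919 for polysome against monosome, 0.942 for polysome against input and 0.953 for monosome against input. Between 167 and 509 of the genes compared were listed at 0 in an S library (167 in polysomes, 188 in monosomes and 509 in input), against 28 to 34 in a P library. With genes listed at 0 in either S fraction left out, 10196 genes remained. Of these, 1348 were at least 2-fold above and 1088 at least 2-fold below the median gene. The counts over all genes compared were 1381 and 1142. The part of the zeros in S input was not tested.

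The labelled cell type was checked against melanocyte markers, of which 7 of 16 are in the table used. Gpnmb, a melanosomal glycoprotein, had 187 TPM in S polysomes, 219.8 in S monosomes and 181 in S input. Mitf, the melanocyte lineage factor, had 0.429, 0.457 and 0.571 TPM in the same libraries. Pmel and Mlana, a melanosome fibre protein and a melanosomal antigen, were at most 0.577 and 1.52 TPM in any S library, and Sox10, Tyr, Dct and Tyrp1 were not analysed here. The pigmentation markers of the label were thus at or near 0 except Gpnmb, Pax3 and Tfap2a. Markers of leukocytes, of endothelium and of keratinocytes, each list taken separately, summed to at most 1.11 TPM in any S library (2 of 9, 1 of 8 and 1 of 8 markers listed). Of 9 fibroblast markers 5 are listed, and they summed to 74.1 TPM in S polysomes, 151 in S monosomes and 103 in S input, mostly from Dpt and Pdpn.

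All ratios below are log2 of polysome over monosome (TPM + 1) minus the ratio of the median gene, which was -0.46 in S, 0.91 in P and 0.67 in A375 S before this centring. A ratio of 1 or more, or of -1 or less, is a 2-fold difference from the median gene and is what the counts refer to. In S, the ratio of 1381 of 10492 genes (13.2%) was 2-fold or more above that of the median gene, and these are counted as higher. That of 1142 (10.9%) was 2-fold or more below it, and these are counted as lower. Without centring the counts were 663 higher (6.32%) and 2681 lower (25.6%). In P the centred counts were 1466 (14.0%) and 1401 (13.4%), and in A375 S, over 12638 genes, 2624 (20.8%) and 2114 (16.7%). The middle 90% of S ratios ran over -1.37 to 1.62, with an SD over genes of 0.91, against 0.98 over the same genes in P. Of the genes at least 2-fold higher in S, 512 were also higher in P (37.1% of the S genes and 34.9% of the P genes). Of those at least 2-fold lower, 337 were also lower in P (29.5% and 24.1%). Another 113 genes were higher in S and lower in P (8.18% and 8.07%), and 18 lower in S and higher in P (1.58% and 1.23%).

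**Figure D1:**
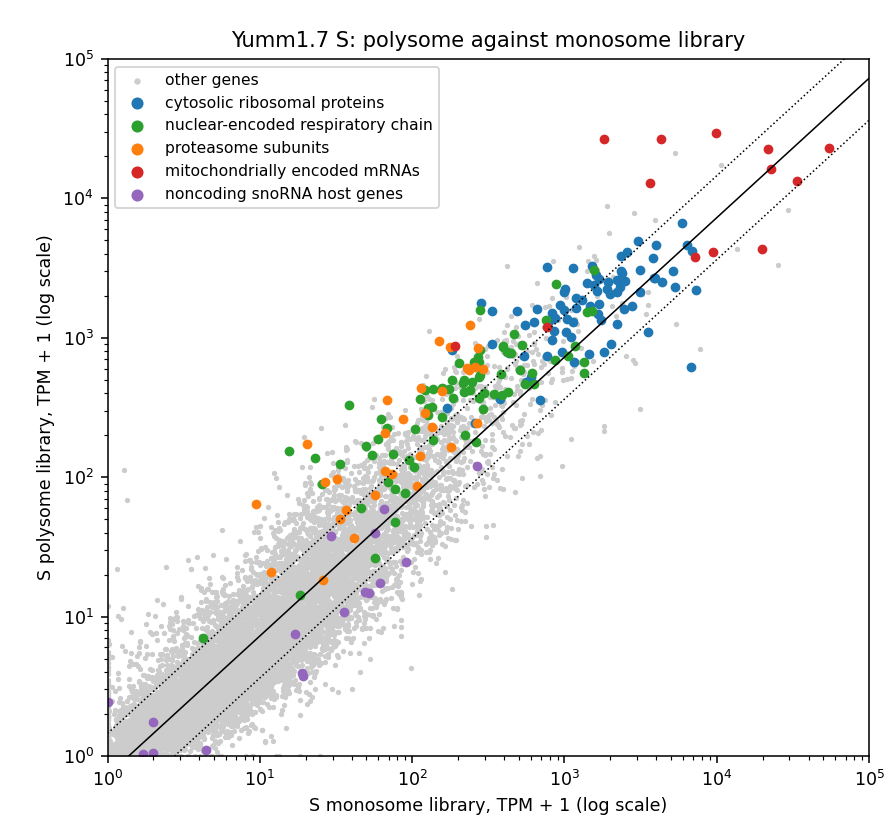
Level of each gene in the S polysome library against its level in the S monosome library, both as TPM + 1 on log axes, 1 point per gene. The solid line is the ratio of the median gene and the dotted lines are 2-fold to either side. Proteasome and nuclear-encoded respiratory chain genes lie mostly above the upper dotted line or between the lines, and mt-Co1, mt-Co2 and mt-Co3, the 3 highest genes in polysomes, stand well above it.

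The highest levels in both S fractions belonged largely to mitochondrially encoded transcripts. These mRNAs encode core subunits of the respiratory chain and are translated inside mitochondria on mitochondrial ribosomes. Together the 13 mRNAs made up 18.44% of TPM in S polysomes and 18.95% in S monosomes, so their total hardly separated the fractions. Single members were far apart, from 4.33 for mt-Co1 to -1.74 for mt-Nd6, with 6 at least 2-fold higher and 1 at least 2-fold lower in polysomes. The list median was 0.51 relative to the median gene and 0.04 without centring.

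The mRNAs of cytochrome c oxidase, the enzyme that passes electrons to oxygen, had the highest levels of all genes in S polysomes. mt-Co1 had 26575 TPM in S polysomes, against 1815 in S monosomes and 11929 in S input. mt-Co3 had 26622 TPM in S polysomes, against 4310.4 in S monosomes and 20746 in S input. mt-Co2 had 29315 TPM in S polysomes, against 9884 in S monosomes and 25944 in S input. All 3 were higher in polysomes than in either other S library. In P polysomes the same 3 were low, with 4592, 1415 and 1436 TPM for mt-Co1, mt-Co3 and mt-Co2, against 16240.1, 16052 and 20889.9 TPM in P monosomes. Their ratios were 4.33, 3.09 and 2.03 in S and -2.74, -4.42 and -4.78 in P.

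ATP synthase is encoded there by an overlapping pair, mt-Atp8 and mt-Atp6, whose reading frames share one transcript, and the pair lay on opposite sides of the median gene. mt-Atp8 had 12785 TPM in S polysomes, against 3645 in S monosomes, and mt-Atp6 had 22898 TPM in S polysomes, against 54515 in S monosomes. The ratios were 2.27 and -0.79. Because the reading frames overlap, reads can be assigned to either gene, so the split is less certain than the pair. mt-Nd4l and mt-Nd4, a complex I pair that overlaps in the same way, had ratios of 2.65 and -0.87. mt-Cytb, the complex III subunit, had 22372 TPM in S polysomes, against 21701 in S monosomes, a ratio of 0.51.

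The 7 complex I mRNAs had a median of -0.47, with mt-Nd4l and mt-Nd5 (ratio 1.09) at least 2-fold higher and mt-Nd6, which is transcribed from the other strand, at least 2-fold lower. mt-Nd6 had 4315 TPM in S polysomes, against 19862 in S monosomes and 7491 in S input. The mitochondrial ribosomal RNAs, which build the mitochondrial ribosome and encode no protein, were low in polysomes. mt-Rnr1 had 835 TPM in S polysomes, against 7779.9 in S monosomes, and mt-Rnr2 had 309 TPM, against 3149.6, with ratios of -2.76 and -2.88. In P their ratios were -7.96 and -6.97. The 22 mitochondrial tRNA genes, a group chosen after values were seen, had a median of -0.48 in S, with 3 higher and 10 lower, and of -4.08 in P.

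**Figure D2:**
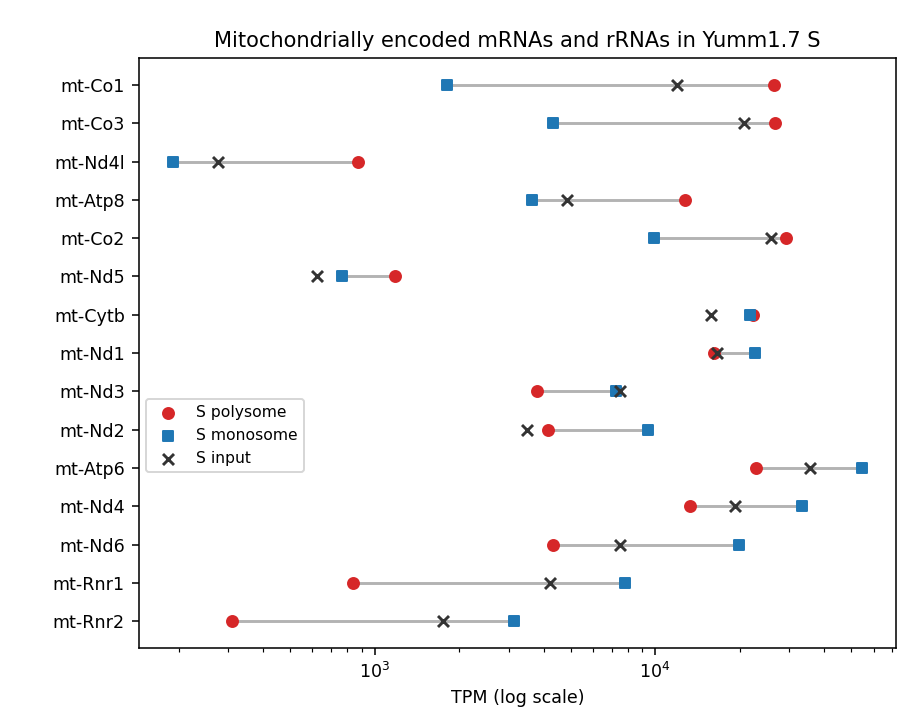
TPM on a log axis of the 13 mitochondrially encoded mRNAs and the 2 mitochondrial ribosomal RNAs in the S polysome (circle), monosome (square) and input (cross) libraries, ordered by their ratio. Circles lie to the right of squares from mt-Co1 down to mt-Cytb and to the left of them below, and mt-Co1 spans 26575 TPM in polysomes against 1815 TPM in monosomes.

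Cytosolic ribosomal proteins form the ribosome with rRNA, and their mRNAs begin with an oligopyrimidine tract (TOP) through which mTOR signalling controls their translation. In S, polysomes had 28 of 80 past 2-fold higher and 3 past 2-fold lower, around a median of 0.66 (16 higher and 1 lower of 48 in the large subunit, 12 and 2 of 32 in the small subunit). As deposited they made up 15.7% of TPM in S polysomes and 15.8% in S monosomes. In P none was at least 2-fold higher and 66 were lower, with a median of -1.79. Without centring, the S median was 0.20 for both subunits. Against S input, the large-subunit median was 0.29 in polysomes and -0.60 in monosomes, and the small-subunit median 0.03 in polysomes and -0.64 in monosomes.

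Rps27a, a ubiquitin fusion from which a small-subunit protein is cut, had 1778 TPM in S polysomes, against 282 in S monosomes and 796 in S input. Rps25, of the small subunit, had 1548 TPM in S polysomes, against 331 in S monosomes and 402 in S input. Their ratios were 3.11 and 2.68 in S and -0.60 and -1.57 in P. Fau, another ubiquitin-like fusion with a small-subunit protein, had a ratio of 2.51, and the large-subunit genes Rpl7, Rpl27, Rpl6 and Rpl34 had ratios of 2.60, 1.94, 1.89 and 1.74. Rps6, the small-subunit protein phosphorylated by S6 kinase, had 2636 TPM in S polysomes, against 1695 in S monosomes, with ratios of 1.10 in S and -1.43 in P. The 3 lower members were Rps12, Rpl41 and Rpsa, with ratios of -3.00, -1.26 and -1.22. Rps12 had 617 TPM in S polysomes, against 6802 in S monosomes and 5507 in S input. Many ribosomal protein genes have near-identical pseudogene copies that can take reads from them. The 118 ribosomal protein symbols ending in -ps, chosen after values were seen, had a median of 0.75 in S (38 higher, 7 lower) and -1.56 in P.

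Other TOP mRNAs encode elongation factors and ribosome-associated proteins, and 5 of 19 exceeded 2-fold on the polysome side and 1 on the monosome side (median 0.43 in S and -0.71 in P, and -0.04 in S without centring). Eif3l, a subunit of initiation factor eIF3, and Eef1d and Eef1b2, exchange factors for the elongation factor eEF1A, had ratios of 2.33, 1.82 and 1.69. Rack1, a scaffold on the small subunit, had 1103 TPM in S polysomes, against 628 in S monosomes, a ratio of 1.27. Eef1a1 (the tRNA carrier), Eef2 (the translocase), Tpt1 and Pabpc1 (the poly(A)-binding protein) lay near the median gene, at 0.05, 0.33, -0.18 and 0.02. In P, Tpt1 and Pabpc1 were at -3.38 and -3.08.

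Among the factors that make protein, 9 of 31 initiation factor genes exceeded 2-fold on the polysome side in S and 4 on the monosome side (median 0.30, and -0.16 without centring). Eif3m and Eif3k of eIF3 and Eif2b4 of the eIF2 exchange factor had ratios of 2.56, 2.37 and 2.19. Eif4g2, an eIF4G relative that does not bind the cap-binding protein, had 23.9 TPM in S polysomes, against 82.1 in S monosomes, a ratio of -1.28. Cytosolic aminoacyl-tRNA synthetases, which load tRNAs, had a median of 0.82, with 7 of 20 higher and 1 lower. Farsa, Qars and Lars had ratios of 2.28, 2.02 and 1.79, and Nars was the lower one at -1.14. Ribosome biogenesis factors had 14 of 75 higher and 4 lower around a median of 0.35 in S (-0.12 without centring), against 35 higher and none lower in P. Ddx49, a nucleolar helicase, had a ratio of 2.28, and Pno1, an assembly factor of the small subunit, one of -2.07. The 6 elongation and termination factors beyond the TOP list had a median of -0.84, with Abce1, the ribosome recycling factor, at -1.31.

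Nuclear-encoded genes of the respiratory chain lay mostly on the polysome side. Complex I is the entry point of electrons from NADH into the respiratory chain, and 26 of its 37 nuclear-encoded subunits exceeded 2-fold on the polysome side in S, with none on the other (median 1.60). Against input, the complex I median was 0.70 for S polysomes and -1.03 for S monosomes, so these mRNAs were both high in the heavy pool and low in the light one. In P the complex I median was 0.72, with 14 higher, and in A375 S it was 0.53 over 37 genes. All 10 Ndufb genes, which encode subunits of the membrane arm, were at least 2-fold higher (median 2.08), against 7 of 13 Ndufa and 6 of 8 Ndufs genes.

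Ndufb2 had 153 TPM in S polysomes, against 14.5 in S monosomes and 97.1 in S input. Ndufb6 had 329.9 TPM in S polysomes, against 37.3 in S monosomes and 75.6 in S input. Their ratios of 3.78 and 3.57 are followed within the complex by Ndufc2 at 3.04 and by Ndufs3, of the peripheral arm, at 2.52. In P, Ndufb2 and Ndufb6 had ratios of 0.50 and 0.47. The lowest subunit was Ndufv3, with 557 TPM in S polysomes, against 1344 in S monosomes, a ratio of -0.81.

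Complexes II to V had 20 of 39 genes past 2-fold higher and none past 2-fold lower (median 1.19 in S, 0.57 in P). By complex, 1 of 4 genes was higher for complex II, 3 of 9 for complex III, 7 of 11 for complex IV and 9 of 15 for complex V, the ATP synthase. Atp5g3, which encodes a subunit of the rotating ring of ATP synthase, had 1570.2 TPM in S polysomes, against 277 in S monosomes and 503 in S input, a ratio of 2.96. Sdhb, the iron-sulfur subunit of succinate dehydrogenase, had a ratio of 2.25. Mitochondrial ribosomal proteins, made in the cytosol and imported, had 29 of 78 members higher and 1 lower (median 0.75 in S, 0.27 in P). Mrpl22, Mrpl21 and Mrps28 had ratios of 2.92, 2.90 and 2.73.

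The proteasome degrades ubiquitin-tagged proteins in its 20S core after its 19S cap has unfolded them. Of its 31 subunit genes, 23 exceeded 2-fold on the polysome side in S and none on the other, with a median of 1.72, and they took up 1.0% of TPM in S polysomes and 0.37% in S monosomes. The 20S core had the higher median, 2.10 with 12 of 14 higher, against 1.47 with 5 of 6 for the cap ATPases and 1.13 with 6 of 11 for the other cap subunits. The list was at 1.37 in P, with 23 of 31 higher, and at 1.98 in A375 S.

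Psma3, a 20S alpha subunit, had 172 TPM in S polysomes, against 19.3 in S monosomes and 24.5 in S input. Psmb4, a 20S beta subunit, had 941 TPM in S polysomes, against 150.0 in S monosomes and 338 in S input. Their ratios were 3.55 and 3.10, and the cap subunit Psmd6 and the alpha subunit Psma6 were at 3.23 and 2.86. The lowest subunit, Psmd11, had 17.4 TPM in S polysomes, against 25.03 in S monosomes, a ratio of -0.04. In class I antigen presentation, which uses proteasome products, 6 of 9 genes were higher and none lower (median 1.08), including the immunoproteasome subunits Psmb10 and Psmb8 at 1.69 and 1.63. The share of TPM of this list was nevertheless lower in S polysomes, 0.346% against 0.445% in S monosomes. Its lowest member was B2m at -0.26.

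Among folding machines, 6 of 8 subunits of the chaperonin CCT, which folds actin and tubulin, were at least 2-fold higher (median 1.48), led by Cct8 and Cct5 at 2.28 and 2.22. The wider list of cytosolic heat shock proteins and chaperonin had 8 of 22 higher and none lower. The tubulin genes themselves had 7 of 9 higher, with a median of 1.5. At the endoplasmic reticulum, 9 of 17 translocation and signal peptidase genes were higher and none lower (median 1.04 in S, 0.27 in P). Sec61g, a small subunit of the translocation channel, had 315 TPM in S polysomes, against 53.8 in S monosomes, a ratio of 2.99. Luminal chaperones had a median of 0.36 in S, with 1 of 15 higher and 1 lower, against 0.95 with 7 higher in P. Glycolysis enzymes had 5 of 16 higher and none lower (median 0.74), with Aldoa at 1.63 and Gapdh the lowest at -0.60. Antioxidant genes had 9 of 22 higher and 1 lower (median 0.42, -0.04 without centring), with the peroxiredoxins Prdx4 and Prdx1 at 3.62 and 1.98 and the glutathione transferase Gstp1 at 2.55.

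**Figure D3:**
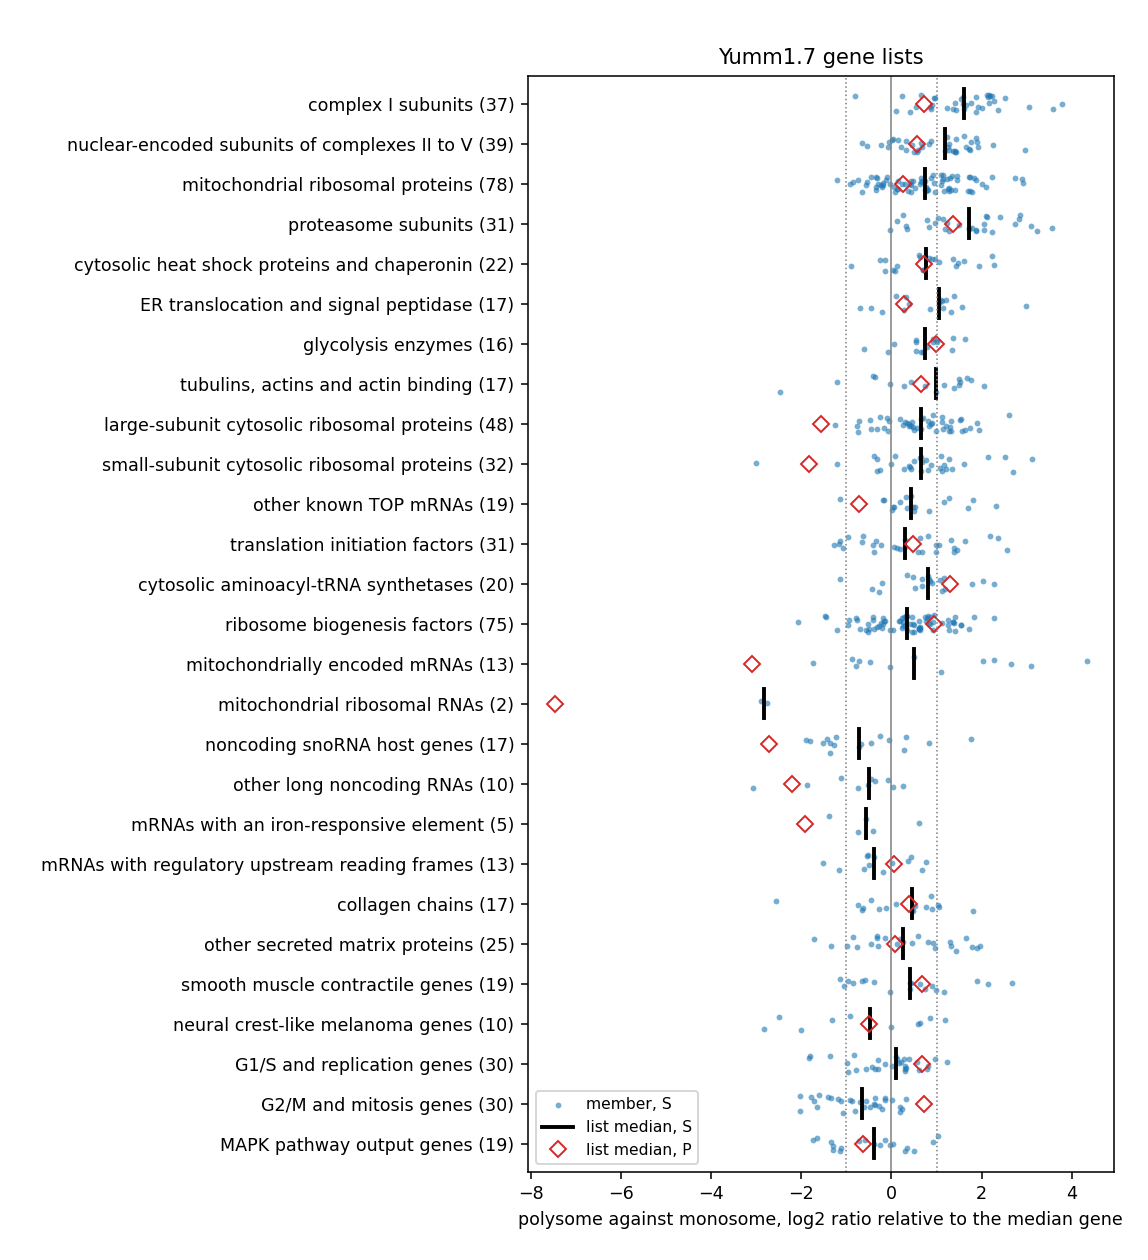
Polysome-to-monosome log2 ratio relative to the median gene for the members of 27 gene lists, with the number of members compared in parentheses. Points are members in S, black bars the list median in S and open diamonds the list median in P; dotted lines mark 2-fold. Complex I and the proteasome have S medians of 1.60 and 1.72, and the lists of mitochondrially encoded RNAs and cytosolic ribosomal proteins have P medians far to the left of their S medians.

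Ferritin, Atf4 and Gpx4 mRNAs, which carry known translational control elements, lay under the median gene. Ferritin mRNAs carry an iron-responsive element, a hairpin that blocks initiation when iron regulatory proteins bind it. Ftl1, the ferritin light chain, had 8235 TPM in S polysomes, against 29414 in S monosomes and 22315 in S input. Fth1, the heavy chain, had 1715 TPM in S polysomes, against 3513 in S monosomes and 3173 in S input. The ratios of -1.37 and -0.57 in S compare with -4.73 and -4.35 in P, where Ftl1 had 2005 TPM in polysomes, against 28228 in monosomes.

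Upstream reading frames hold back the main frame of Atf4 and Ddit3, stress-response transcription factors, until initiation slows. Atf4 had 55.2 TPM in S polysomes, against 220.1 in S monosomes and 133 in S input. Ddit3 had 172 TPM in S polysomes, against 529 in S monosomes and 701 in S input. The ratios were -1.51 and -1.15 in S and 0.01 and -1.59 in P. None of 13 such mRNAs was at least 2-fold higher and 2 were lower (median -0.39). Among ATF4 target genes, 2 of 19 were higher and 2 lower, the higher ones being Asns, which makes asparagine, at 1.90 and Phgdh, of serine synthesis, at 1.73.

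Selenoprotein mRNAs need a stop codon to be recoded as selenocysteine, and 1 of 17 was higher and 3 lower. Gpx4, the lipid peroxide reductase, had 687 TPM in S polysomes, against 2797 in S monosomes, and Selenow had 44.0 TPM in S polysomes, against 338 in S monosomes. Their ratios were -1.56 and -2.45 in S, close in value to -1.62 and -2.62 in P.

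Noncoding transcripts give a view of RNA that need not carry translating ribosomes. Of 17 noncoding snoRNA host genes, several of which are known to engage ribosomes over short frames, 8 were at least 2-fold lower and 1 higher in S (median -0.73), against 17 lower in P (median -2.71) and a median of -2.84 over 16 genes in A375 S. Only 14 of the 17 averaged 1 TPM or more in the S libraries, with an S median of -1.20. The rest entered through their levels in P. Over all 17 the S median was -1.23 with a pseudocount of 0.1 TPM and -0.63 with one of 5 TPM. Gas5, a TOP-type host gene, had 119.7 TPM in S polysomes, against 265 in S monosomes and 209 in S input, with ratios of -0.68 in S and -3.37 in P. Snhg17, Snhg20, Snhg1 and Snhg3 had ratios of -1.90, -1.82, -1.43 and -1.37. The 1 higher gene was Snhg16, listed at 0 in S monosomes and at 1.46 TPM in S polysomes. Of 10 other noncoding RNAs none was higher and 3 were lower, among them Malat1, a nuclear transcript, with 1.26 TPM in S polysomes, against 10.4 in S monosomes, and Rpph1, the RNA of ribonuclease P, with 6.30 TPM, against 83.3.

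Genes of mitosis were at low levels in S. The 30 G2/M and mitosis genes together made up 0.0065% of TPM in S polysomes and 0.0186% in S monosomes, against 0.384% in P polysomes and 0.129% in P monosomes. Of the 30, 20 averaged 1 TPM or more in the S libraries, with a median ratio of -1.05, and the others entered through their levels in P. Over all 30 the S median of -0.66 depends on the pseudocount, at -1.39 with 0.1 TPM and -0.26 with 5 TPM. Ube2c, a ubiquitin-conjugating enzyme of mitotic exit, had 3.71 TPM in S polysomes, against 25.7 in S monosomes and 1.72 in S input. In P, Ube2c had 622 TPM in polysomes, against 235 in monosomes. Against S input the list was at 0.43 in S polysomes and 1.09 in S monosomes, the higher value in monosomes. RNA from fewer dividing cells and less RNA per cell cannot be told apart in such bulk libraries. G1/S and replication genes had a median of 0.10 in S (1 of 30 higher, 3 lower) and of -0.36 without centring.

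Targets of the MAPK pathway, which mutant Braf drives in this line, had 7 of 19 genes at least 2-fold lower and 1 higher in S (median -0.38). That median was -1.19 with a pseudocount of 0.1 TPM and -0.11 with one of 5 TPM. It was -1.12 over the 13 genes averaging 10 TPM or more in the 6 libraries of both states. Only 11 of the 19 averaged 1 TPM or more in the S libraries, with a median of -1.07. The others entered through their levels in P. The 20 listed genes made up 0.0055% of TPM in S polysomes and 0.0135% in S monosomes. In P they made up 0.151% in polysomes and 0.111% in monosomes. Ccnd1, the G1 cyclin D1, had 2.08 TPM in S polysomes, against 13.2 in S monosomes and 2.47 in S input. Myc, the growth-promoting transcription factor, had 0.801 TPM in S polysomes, against 5.27 in S monosomes and 0.508 in S input. At these low levels the log2(TPM + 1) scale understates differences, and the ratios were -1.74 and -1.34. Among p53 targets 2 of 16 were higher and 4 lower, with Mdm2, the p53 ubiquitin ligase, at -1.45 and Cdkn1a, the CDK inhibitor p21, at -1.19. Cdkn1a had 43.8 TPM in S polysomes, against 139.8 in S monosomes.

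Several transcription factors of dedifferentiated melanoma were on the monosome side. Of 10 genes of the neural crest-like list, 4 were at least 2-fold lower and 1 higher (median -0.47). Sox9, a neural crest factor, had 7.24 TPM in S polysomes, against 63.1 in S monosomes and 34.1 in S input. Zeb1, a repressor of epithelial genes, had 2.04 TPM in S polysomes, against 28.8 in S monosomes and 11.0 in S input. Their ratios were -2.50 and -2.83 in S and -1.58 and -0.79 in P, and Sox2 and Twist1 had S ratios of -2.02 and -1.32. Tfap2a, a melanocyte lineage factor, had 14.0 TPM in S polysomes, against 83.3 in S monosomes, a ratio of -2.02. The 243 zinc finger genes with Zfp symbols had a median at that of all genes in S, with 22 higher and 18 lower. In P their median was -0.68, with 6 higher and 75 lower. Of the 243, 190 averaged 1 TPM or more in the S libraries, with a median of -0.07. All 313 listed made up 0.083% of TPM in S polysomes and 0.121% in S monosomes, against 0.213% and 0.142% in P. At low levels the log2(TPM + 1) scale understates differences, and its part in this contrast was not tested.

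Cytoskeletal and matrix mRNAs were divided. Myl6, a myosin light chain, had 8824 TPM in S polysomes, against 1904 in S monosomes and 3517 in S input. Actb, cytoplasmic actin, had 4312 TPM in S polysomes, against 13668 in S monosomes and 9108 in S input. Tmsb10, which binds actin monomers, had 3318 TPM in S polysomes, against 25315 in S monosomes and 18389 in S input. The ratios of 2.67, -1.20 and -2.47 place a motor subunit high and actin and its buffer low in polysomes. The smooth muscle genes Tpm2, Actg2 and Acta2, a tropomyosin and actin isoforms, had ratios of 2.14, 1.90 and 1.17, in a list with 4 of 19 higher and 2 lower. Collagen chains had 3 of 17 higher and 1 lower (median 0.45, and -0.02 without centring). The median was -0.37 over the 10 chains averaging 10 TPM or more in the 6 libraries of both states. Col4a5, a basement membrane chain, had a ratio of -2.56. Other secreted matrix proteins had 7 of 25 higher and 2 lower. Pcolce, an enhancer of procollagen processing, had 3873 TPM in S polysomes, against 1555 in S monosomes, a ratio of 1.78. Fstl1, a secreted glycoprotein, had a ratio of -1.71. Among matrix receptors, the integrin chains Itga6 and Itga5 had ratios of -2.33 and -1.77, and the laminin chain Lamb2 one of 1.18.

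Over the 2940 genes that averaged 20 TPM or more in the S libraries, the highest ratios were those of Aarsd1, an editing factor related to alanyl-tRNA synthetase, and Slc39a7, a zinc transporter. Aarsd1 had 111 TPM in S polysomes, against 0.287 in S monosomes and 0.362 in S input. Slc39a7 had 67.4 TPM in S polysomes, against 0.343 in S monosomes and 65.3 in S input. The odd library out therefore differed: polysomes stood alone for Aarsd1 and monosomes for Slc39a7. Their ratios of 6.91 and 6.13 in S compare with 1.62 and 1.53 in P. Uimc1, a ubiquitin-binding protein of DNA repair, had 105 TPM in S polysomes, against 11.4 in S monosomes and 108 in S input, a ratio of 3.57 against -2.24 in P. Cd63, a tetraspanin of late endosomes, had 3239 TPM in S polysomes, against 419 in S monosomes and 831 in S input, a ratio of 3.41. Others among the 15 highest were Fcf1 (ribosome biogenesis), Aimp2 (a scaffold of the synthetase complex), Nme3 (a nucleoside diphosphate kinase) and Prmt1 (an arginine methyltransferase) at 3.77, 3.41, 3.25 and 3.17.

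Over the same 2940 genes, the lowest ratio belonged to Peg10, an imprinted gene derived from a retrotransposon and read with a programmed frameshift. Peg10 had 3.30 TPM in S polysomes, against 97.5 in S monosomes and 29.7 in S input, a ratio of -4.05. Kdelr2, a receptor that returns proteins to the endoplasmic reticulum, had 14.8 TPM in S polysomes, against 183 in S monosomes and 67.2 in S input. In both genes the monosome level was above input and the polysome level below it. Others among the 15 lowest were Secisbp2l, Efr3a, Nckap1 (of the WAVE actin complex), Tcea1 (transcription elongation), Plod2 (a collagen lysyl hydroxylase) and Stk3 (a Hippo pathway kinase), at -3.26, -3.04, -2.88, -2.69, -2.68 and -2.57. In P, Plod2 lay at the median gene.

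Transcript length moved with the ratio. Lengths were those of the human gene of the same symbol, found for 9444 genes (90.0%). Spearman's rho across genes was -0.23 with mRNA length, -0.11 with coding length and -0.25 with the noncoding part of the mRNA. These are descriptions across genes, which share the same pair of libraries and are not replicates. In S, 32.7% of the 544 genes with mRNAs up to 1000 nt were at least 2-fold higher and 6.80% lower, against 4.19% and 13.5% of the 430 genes over 9000 nt. In P the rho with coding length had the other sign, 0.13, and in A375 S it was 0.12. The 164 genes with coding lengths up to 300 nt had a median ratio of 0.15 in S, against -0.54 in P and -0.99 over 177 genes in A375 S.

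Several lists high in S polysomes hold short mRNAs, but not all do. The median mRNA length was 942 nt for complex I, 1580 nt for the proteasome, 1378 nt for mitochondrial ribosomal proteins and 910 nt for large-subunit ribosomal proteins, against 3046 nt over all genes compared. The median ratio of all genes with mRNAs up to 1000 nt was 0.49 and that of mRNAs of 1000 to 2000 nt was 0.31, beside 1.60 for complex I and 1.72 for the proteasome. Aminoacyl-tRNA synthetases, glycolysis enzymes and cytosolic heat shock proteins with chaperonin had median ratios of 0.82, 0.74 and 0.77 at median mRNA lengths of 2866, 2654 and 2481 nt. The part of length in the list values was not tested. The rho of the ratio with the level in S input was 0.03, but the ratio fell and rose again over levels. Its median was 0.17 below 1 TPM in S input, -0.15 at 5 to 20 TPM and 0.51 for the 809 genes of at least 100 TPM. Of these 809 genes, 250 were higher and 79 lower. That put 40.7% past 2-fold in either direction, against 14.3% of genes below 1 TPM and 24.0% of all genes. The part of level in the list values was not tested.

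**Figure D4:**
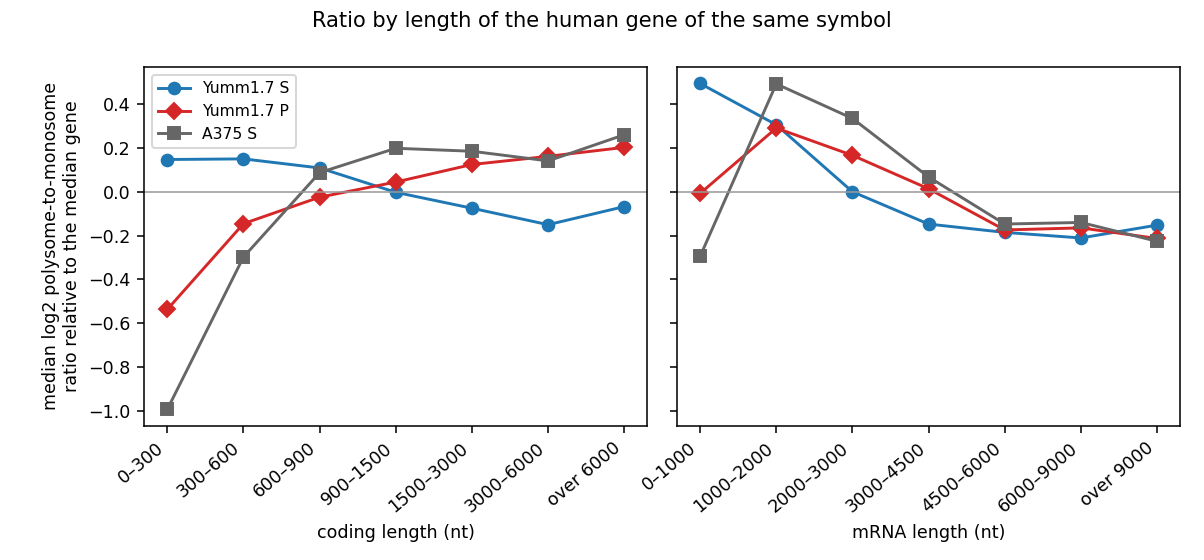
Median polysome-to-monosome log2 ratio relative to the median gene, by coding length (left) and mRNA length (right) of the human gene of the same symbol, for Yumm1.7 S, Yumm1.7 P and A375 S. For coding lengths up to 300 nt the S median is 0.15, against -0.54 in P and -0.99 in A375 S, while all 3 lines slope down with mRNA length from the 1000 to 2000 nt bin to the 4500 to 6000 nt bin.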

How the data were processed

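The authors deposited TPM values, 1 table per cell line with 6 libraries each. Library preparation, per the labels' protocols, used poly-T selection, fragmentation and random-primed cDNA of phenol-extracted RNA. Per the submitters' processing notes, the mouse build was GRCm38 (mm10) and the human build GRCh38 (hg38). The sources used here do not give an aligner, quantifier, annotation or strand setting. Poly-T selection lowers RNAs without a poly(A) tail, histones and small RNAs among them. TPM is relative within a library and keeps no depth, so no interval could be given.

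Genes averaging 1 TPM or more in the 6 libraries of a line were compared as log2(TPM + 1), polysome minus monosome, less the median gene, with pandas 2.3.3 and numpy 2.4.6 in Python 3.11.15. The same was done for P and for A375 S. A difference of at least 2-fold was counted, a fold on this scale understates that of low genes, and no test was made because each group has 1 library. The calculation was tested on simulated data. Named genes are the 15 highest and 15 lowest ratios among genes averaging 20 TPM or more in the 3 S libraries, the 4 or fewer largest ratios in every list among genes averaging 5 TPM or more, and a fixed set. Other list members, such as the lowest or highest of a list or every mitochondrial mRNA, were named after their values were seen, and 1 gene among the lowest is not reported here. Lengths are the longest coding transcript of the human gene of the same symbol in GENCODE 29, and A375 genes were matched by symbol in capitals (8521 genes). No gene sequences were used. The comparison and the 52 gene lists were chosen with earlier results of these data known.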

Additional observations from a re-analysis of the deposited data

Results flagged for a closer look

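The polysome-to-monosome ratio of S and that of P lay on opposite sides of the median gene, each past 2-fold for single genes, for the following items, so that S minus P is a large positive log2 difference. None of these differences was tested, since each state has 1 library per fraction.

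Every member of the lists of mitochondrially encoded mRNAs and of large- and small-subunit cytosolic ribosomal proteins had a higher centred ratio in S than in P. The centred list medians differed by 3.61, 2.23 and 2.49. Among mitochondrial mRNAs named in the text, the difference was 7.51 for mt-Co3, 7.07 for mt-Co1, 6.81 for mt-Co2, 5.97 for mt-Atp8 and 2.67 for mt-Nd5. Among ribosomal protein genes it was 4.25 for Rps25, 3.37 for Rpl34 and 2.52 for Rps6. Of other TOP mRNAs, Eef1b2 differed by 3.43 and Rack1 by 2.55. Outside these groups the difference was 5.8 for Uimc1, 3.83 for the snoRNA host gene Snhg16, which was listed at 0 in S monosomes, 3.17 for the histone gene Hist2h2aa1 and 2.44 for Ssr3, a subunit of the translocon-associated complex.

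The median gene itself differed by state, at -0.46 in S and 0.91 in P before centring, and the number of genes compared that were listed at 0 in a library was 167 to 509 in S and 28 to 34 in P. Because each ratio is taken relative to its own median gene, centring adds the gap between these median genes to every S minus P difference above. Each of these differences would be smaller without it. For at least 1 ribosomal protein gene, Rps12, at -3.00 in S and -4.33 in P, the uncentred ratio was not higher in S. Uncentred, the S list medians were 0.04 for mitochondrially encoded mRNAs and 0.20 for ribosomal proteins of either subunit. The part of the zeros in these differences was not tested.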

How the results depend on the processing

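For S polysomes against monosomes, 1381 genes were higher and 1142 lower. The counts were 688 and 664 with a pseudocount of 5 TPM, 663 and 2681 without centring, and 818 and 3033 with libraries scaled to the total without mitochondrial and ribosomal protein genes, while a pseudocount of 0.1 TPM gave 1793 lower. In P the counts were 629 lower with a pseudocount of 5 TPM, 799 higher with a minimum mean of 10 TPM, 4848 higher and 266 lower without centring, and 155 higher and 505 lower with input as denominator. In A375 S they were 681 lower, 1542 higher, 4892 and 614, and 1322 and 1195 under the same 4 choices. A larger pseudocount compresses low genes and a higher minimum leaves fewer genes, 5822 in Yumm1.7 and 6981 in A375; the cause of the other shifts was not tested. Scaling without mitochondrial and ribosomal protein genes was not run for A375. Of 32 list medians of at least 3 genes above 0, 18 turned below 0 without centring (a shift of -0.46) and 15 with that scaling. With S input as denominator, 8 of 47 list medians moved by over 1.5 times, to 0.70 for complex I, 0.48 for complexes II to V, 0.46 for ER translocation and signal peptidase, 0.03 for small-subunit ribosomal proteins, -0.07 for replication-dependent histones, 0.23 for mRNAs with regulatory upstream reading frames, -0.07 for elongation and termination factors and 0.43 for G2/M genes. With S input as denominator, 8 of 225 named genes, each past 2-fold against monosomes, changed sign, to -0.58 for Nme3, -0.44 for Hist2h2aa1, -0.085 for Col12a1, -0.29 for Zfp688, 0.0295 for Rfc5, 0.86 for Ube2c, 0.17 for Hnrnph1 and 0.32 for Myc, and 121 others moved by over 1.5 times; the cause was not tested. No paired analysis was possible because each group has 1 library, and for the same reason no library could be left out.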

Other observations

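Of the replication-dependent histone genes, which package newly made DNA and whose mRNAs normally lack a poly(A) tail, 20 of 62 passed the limit on low levels, and of these 8 passed 2-fold on the polysome side and 2 on the monosome side (median 0.52). Hist1h4h had 55.8 TPM in S polysomes, against 19.3 in S monosomes and 38.0 in S input, a ratio of 1.95. Splicing proteins had 3 of 27 higher and 4 lower (median 0.32 in S, 0.83 in P). U2af1, which recognises the end of introns, had a ratio of 2.83, whereas Srsf1 and Hnrnph1, regulators of exon choice, had ratios of -1.70 and -1.62. RNA polymerase subunits had 5 of 26 higher and none lower, led by Polr2i at 2.01.

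Lysosomal proteins had 7 of 28 higher and 2 lower around a median of 0.07. Ctsl, a cathepsin, had 558 TPM in S polysomes, against 159 in S monosomes and 279 in S input, while Lipa, the acid lipase, had 17.7 TPM in S polysomes, against 113 in S monosomes and 46.6 in S input. These levels gave ratios of 2.26 and -2.14, so enzymes of one organelle lay on both sides. Interferon-stimulated genes had 4 of 28 higher and 5 lower, from Isg15, a ubiquitin-like protein, at 1.71 to Ifit1, which binds foreign RNA caps, at -2.08. Cholesterol synthesis had 1 of 21 higher and 3 lower, with Fdps, a prenyl diphosphate synthase, at 2.63 and Hmgcs1, the HMG-CoA synthase, at -1.90.

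Signalling lists lay near the median gene. Regulators of mTOR had none of 19 higher and 2 lower, with Tsc2, an inhibitor of the pathway, at -1.59 in S and 0.70 in P. Immediate early genes had 3 of 16 higher and 1 lower, with Junb, a subunit of the factor AP-1, at 1.45. Amino acid transporters had 1 of 14 higher and 1 lower, the lower one being Slc7a5, the leucine carrier, at -1.30. V-ATPase and autophagy genes had 3 of 32 higher and 2 lower, and of 11 receptor tyrosine kinases none passed 2-fold in either direction.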
